A study of Mus musculus with 15 samples.

Results

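A set of 10 transcription factor genes of the AP-1 and early growth response (EGR) families were followed through the growth, fusion and ossification of the mouse secondary palate. They comprised the Fos family (*Fos*, *Fosb*, *Fosl1*, *Fosl2*), the Jun family (*Jun*, *Junb*, *Jund*), *Atf3*, and the zinc finger genes *Egr1* and *Egr3*, out of 54232 genes in the deposited count table. They were chosen by measured values of these libraries: *Fosb* and *Atf3* had some of the largest differences in level between the day of birth (P0) and the last embryonic stage (E16.5), and the related genes were taken with them. Differences that involve the E16.5 or P0 libraries are therefore given as descriptions. Tests are given among the 3 earlier stages, E13.5 to E15.5, whose libraries did not enter that difference. The list was made with earlier results of these data known, and all 15 libraries share the estimate of the spread. These tests are therefore not fully separate from the choice.

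AP-1 is a dimer of basic leucine zipper proteins. Jun proteins pair with each other or with Fos proteins, whereas Fos proteins need a Jun partner to bind DNA, and ATF3 can pair with Jun proteins. *Fos*, *Fosb*, *Junb*, *Atf3*, *Egr1* and *Egr3* are immediate early genes, transcribed within minutes of growth factor, mechanical or stress signals through MAP kinases, serum response factor and CREB, and their messenger RNAs are short-lived. In skeletal tissue Fos is required for osteoclast formation, and Fosl1, Fosl2 and Junb act in bone-forming cells, while AP-1 factors in keratinocytes take part in stratification.

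The tissue was dissected secondary palate of wild-type mice, labelled as wild type with no strain given, sampled daily from E13.5 to E16.5 and again at P0. Each stage had 3 libraries of bulk RNA, and per the labels' protocol each library pooled the palates of 3 embryos, so the values average over animals and cell types. Litters are not named, and p-values measure only the spread between these pools. Library totals ran from 21.5 to 69.0 M counts and were lower at E16.5 (37.1 to 52.3 M) and P0 (21.5 to 41.2 M) than at the earlier stages (58.2 to 69.0 M). Levels are CPM, counts scaled to library totals after TMM adjustment (a trimmed mean of log ratios between libraries). All 9 palate mesenchyme markers, among them *Osr2*, *Pax9*, *Shox2* and *Tbx22*, had at least 1 CPM in a library of every stage, and their summed level ran from 801 to 1357 CPM at E13.5 and from 406 to 508 CPM at P0. The 3 pools of E16.5 and P0 replicate 2 held a summed level of 0.151 to 0.457 CPM of Y-linked genes, against 86.2 and 129.6 CPM in P0 replicates 1 and 3, so stage and sex are partly confounded between E16.5 and P0. Without P0 replicate 2 they are fully confounded in that contrast. Among the earlier stages, E13.5 replicate 1 and E15.5 replicate 1 were at 0.401 and 0.337 CPM, and the other libraries at 55.3 to 190.3 CPM. In bulk tissue, fewer cells of a type and less RNA per cell cannot be told apart.

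The sequences upstream of 5 genes with higher values at P0 in all 3 libraries than in any E16.5 library are shown because these genes are induced through short promoter elements. They are the 250 bases before the RefSeq gene start on GRCm38.p6, written 5′ to 3′ on the gene's strand. Capitals mark matches, searched on both strands. The first motif was TGACG, the core of the CRE, the cyclic AMP response element bound by CREB and ATF proteins. The second was TATAAA, a core promoter element that positions the start of transcription. The others were GCGNGGGCG, an EGR site, and TGACATCA, an AP-1-like site. TGACTCA (the AP-1 site), TGACGTCA (the full CRE, which contains TGACG) and the CArG box of serum response factor were also searched. The windows lie at chr12:85473640-85473889, plus strand for *Fos*, chr7:19310046-19310295, minus strand for *Fosb*, chr8:84978749-84978998, minus strand for *Junb*, chr1:191183334-191183583, minus strand for *Atf3*, inside the annotated span of that gene, and chr4:95052223-95052472, minus strand for *Jun*. *Jund* was also higher in every P0 library than in any E16.5 library, but its window held no match and is not shown.
Fos: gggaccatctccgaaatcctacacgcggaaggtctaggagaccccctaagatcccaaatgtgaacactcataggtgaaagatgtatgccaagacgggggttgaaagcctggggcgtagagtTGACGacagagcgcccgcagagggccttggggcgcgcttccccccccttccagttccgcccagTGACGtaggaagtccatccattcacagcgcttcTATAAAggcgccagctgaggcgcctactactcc
Fosb: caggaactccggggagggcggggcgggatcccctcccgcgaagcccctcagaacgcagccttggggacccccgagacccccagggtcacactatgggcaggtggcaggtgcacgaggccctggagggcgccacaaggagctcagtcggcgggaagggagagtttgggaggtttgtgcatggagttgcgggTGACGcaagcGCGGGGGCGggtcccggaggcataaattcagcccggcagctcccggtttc
Junb: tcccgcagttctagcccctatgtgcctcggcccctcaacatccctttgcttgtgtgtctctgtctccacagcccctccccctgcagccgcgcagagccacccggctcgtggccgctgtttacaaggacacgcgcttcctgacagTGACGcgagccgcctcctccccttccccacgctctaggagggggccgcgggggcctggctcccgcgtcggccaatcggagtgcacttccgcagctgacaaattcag
Atf3: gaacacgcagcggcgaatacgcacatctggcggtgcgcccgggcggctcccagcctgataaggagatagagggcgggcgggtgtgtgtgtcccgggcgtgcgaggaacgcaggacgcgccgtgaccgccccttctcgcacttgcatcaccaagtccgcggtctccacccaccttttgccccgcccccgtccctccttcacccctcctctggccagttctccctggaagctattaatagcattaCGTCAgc
Jun: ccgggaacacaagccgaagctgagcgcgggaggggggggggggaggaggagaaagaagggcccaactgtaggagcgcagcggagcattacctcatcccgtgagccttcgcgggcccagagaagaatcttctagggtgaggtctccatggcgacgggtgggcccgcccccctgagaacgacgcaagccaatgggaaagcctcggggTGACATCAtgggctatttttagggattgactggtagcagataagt

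TGACG was present in 4 of the 7 members that had a promoter window (*Fos*, *Fosb*, *Junb* and *Atf3*) and in 17.8% of 32851 windows of the same length in the table. In *Fos* it occurred at bases -129 to -125 and -66 to -62 before the gene start, with a TATAAA at -33 to -28. In *Fosb* it lay at -60 to -56, followed by a GCGGGGGCG match at -50 to -42. The *Junb* match was at -106 to -102, and the *Atf3* match, on the other strand, at -7 to -3. *Jun* had no TGACG and held TGACATCA at -45 to -38, which 2.93% of windows had. GCGNGGGCG was found in the windows of *Fosb* and *Fosl2* (4.7% of windows). TGACTCA (4.46% of windows), TGACGTCA (1.55%) and the CArG box (1.47%) were found in 0 of the 7, which says only that these letters are not in these windows. The *Fosl2* window (chr5:32136222-32136471) lies inside the annotated span of that gene. The *Jund* window (chr8:70697489-70697738) ends well before the annotated start of that gene at 70698949. *Fosl1*, *Egr1* and *Egr3* were not examined for motifs.

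Between E13.5 and E15.5, 6 of the 10 genes rose and none fell. *Fos*, *Fosl2*, *Junb*, *Atf3*, *Egr1* and *Egr3* were higher at E15.5 than at E13.5 (edgeR's quasi-likelihood test, Benjamini-Hochberg adjusted p under 0.05 over 22151 genes), where 13.7% of all tested genes were called higher, 9.18% lower and 22.9% in either direction. A test over the 3 stages together called these 6 genes (28.2% of all genes), and 3 of them (*Fos*, *Junb* and *Egr3*) without E15.5 replicate 3 (13.8% of all genes). By the median of the members the larger part of the step fell between E14.5 and E15.5. *Egr3* instead rose more in the first day (log2 fold changes 1.21, then 0.89), and *Egr1* about equally (0.66, then 0.74). From E14.5 to E15.5, 4 genes rose (*Fos*, *Fosl2*, *Junb* and, not among the 6, *Fosb*). Of all genes 12.7% were called higher, 13.4% lower and 26.1% in either direction. Upper-quartile scaling took the median over all genes in this step from 0.03 to 0.16 on the log2 scale, and with it 3424 genes were called higher and 2007 lower in place of 2803 and 2970. Between E13.5 and E14.5, 0 members passed with edgeR (1, *Egr3*, at an unadjusted p under 0.05), against 0.00903% of all genes higher and 0 lower. DESeq2 called 1 member, *Egr3*, where it called 1000 genes in all, 672 of them higher. Leaving out *Fosl1*, whose counts reached 10 only in the P0 libraries and which therefore entered the tests through that stage, the median log2 fold change of the other 9 members was 0.25 from E13.5 to E14.5 and 0.89 from E14.5 to E15.5, against medians of 0.02 and 0.03 over all genes. Every library of the later stage lay above every library of the earlier one in 2 members from E13.5 to E14.5. This held for 8 from E14.5 to E15.5 and 8 from E13.5 to E15.5. Of all genes, 15.5%, 24.0% and 23.7% did so in these contrasts. The number of members past the threshold from E14.5 to E15.5 was 2 (*Fos* and *Junb*) without E14.5 replicate 1, E14.5 replicate 2, E15.5 replicate 2 or E15.5 replicate 3. Of all genes, 5.41%, 6.34%, 7.11% and 7.19% in turn were then called higher. The number was 7 without P0 replicate 2, which is not in the contrast but shares in the estimate of the spread and adds *Jun*, *Atf3* and *Egr1* (14.4% of all genes higher).

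**Figure D1:**
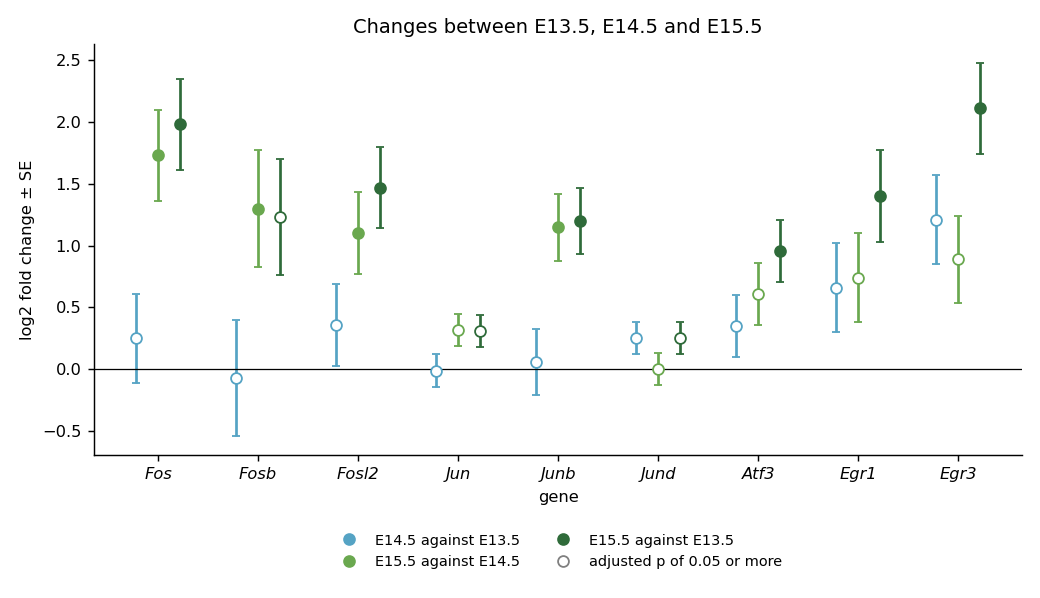
Log2 fold change (y axis, with its standard error as bars) of 9 genes in 3 contrasts among E13.5, E14.5 and E15.5, from edgeR fits to 15 libraries. Filled points had an adjusted p under 0.05, and the filled points of *Fos* lie at 1.73 and 1.98 while all 3 points of *Jund* are open. *Fosl1* is left out because its counts at these stages were 0 to 6.

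*Fos* (ENSMUSG00000021250.13, chromosome 12, 85473890 to 85477273, GRCm38 as below), which encodes an inducible partner of Jun, was at 2.14, 1.63 and 2.36 CPM in the E13.5 libraries and at 2.04, 1.73 and 3.53 CPM at E14.5. At E15.5 it was at 6.14, 8.35 and 9.98 CPM, above every earlier library. The log2 fold change was 1.73 from E14.5 (standard error 0.37, edgeR adjusted p 0.00602) and 1.98 from E13.5 (standard error 0.37, edgeR adjusted p 0.00294). Both changes passed whichever of the 6 libraries was left out, with adjusted p from 0.00458 to 0.0359 and from 0.00329 to 0.0200.

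*Fosb* (ENSMUSG00000003545.3, chromosome 7, 19302696 to 19310051), an inducible Fos protein, was at 0.202 to 0.492 CPM in the 6 libraries of E13.5 and E14.5. At E15.5 it was at 1.31, 0.924 and 0.795 CPM, so the stages did not overlap. Its log2 fold change from E14.5 was 1.30 (standard error 0.47, edgeR adjusted p 0.0464), and leaving out any 1 of the 6 libraries ended the call (adjusted p 0.0558 to 0.180). From E13.5 the value was 1.23 (standard error 0.47, edgeR adjusted p 0.0609).

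*Fosl2* (ENSMUSG00000029135.10, chromosome 5, 32135801 to 32157842), which encodes Fra-2, was the most abundant Fos family transcript at these stages. Its levels were 19.9, 17.6 and 30.9 CPM at E13.5, 26.5, 30.4 and 31.1 CPM at E14.5, and 49.2, 60.1 and 79.9 CPM at E15.5. The E15.5 libraries stood above all 6 earlier ones. The log2 fold change was 1.47 from E13.5 (standard error 0.33, edgeR adjusted p 0.00863) and 1.1 from E14.5 (standard error 0.33, edgeR adjusted p 0.0277). The former passed whichever library was left out, and the latter only without E15.5 replicate 1 (range of adjusted p 0.0274 to 0.111).

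*Fosl1* (ENSMUSG00000024912.5, chromosome 19, 5447703 to 5455945), which encodes Fra-1, had 0, 4 and 6 counts in the E13.5 libraries, 1, 4 and 0 at E14.5, and 5, 4 and 4 at E15.5. With 3 counts taken as the detection floor, most of these values lie close to it, and no fold is given for these stages.

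Among the Jun genes, *Junb* (ENSMUSG00000052837.6, chromosome 8, 84974484 to 84978718), an inducible member of the family, rose. It was at 4.13, 4.69 and 6.73 CPM at E13.5, 5.53, 5.10 and 5.53 CPM at E14.5, and 8.82, 12.5 and 14.6 CPM at E15.5. The E15.5 libraries did not overlap the earlier ones, and the log2 fold change was 1.15 from E14.5 (standard error 0.27, edgeR adjusted p 0.0103) and 1.20 from E13.5 (standard error 0.27, edgeR adjusted p 0.00864). Both passed whichever library was left out, with a highest adjusted p of 0.0478 and 0.0438.

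*Jun* (ENSMUSG00000052684.4, chromosome 4, 95049034 to 95052222), also inducible and a partner through which Fos proteins bind DNA, moved little by comparison. It was at 71.8 to 83.5 CPM at E13.5, 75.5 to 82.0 CPM at E14.5 and 96.5 to 99.5 CPM at E15.5. The E15.5 libraries were all above the others, but the log2 fold changes of 0.32 from E14.5 and 0.31 from E13.5 (standard errors 0.13) had edgeR adjusted p values of 0.0845 and 0.0960. *Jund* (ENSMUSG00000071076.6, chromosome 8, 70698949 to 70700616), the constitutively expressed Jun protein, was at 93.9 to 111 CPM at E13.5, 114 to 128 CPM at E14.5 and 108 to 136 CPM at E15.5. These ranges overlap at E15.5 with both earlier stages, and no contrast of *Jund* among the 3 stages passed (edgeR adjusted p 0.197 to 0.984). All 3 Jun genes overlap genes on the opposite strand, as *Atf3* and *Fosl1* do, and the authors counted by strand.

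*Atf3* (ENSMUSG00000026628.13, chromosome 1, 191170296 to 191218039), a stress-inducible repressor and AP-1 partner, was at 1.79, 1.58 and 2.12 CPM at E13.5 and at 2.98, 3.94 and 3.86 CPM at E15.5. The log2 fold change of 0.96 (standard error 0.25, edgeR adjusted p 0.0160) lost its call without E13.5 replicate 1 or 2 or E15.5 replicate 2 or 3 (adjusted p 0.0577, 0.0740, 0.0576 and 0.0531). Its E14.5 libraries lay between, at 2.02, 2.06 and 2.94 CPM, and neither single-day step passed.

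Both EGR genes rose between E13.5 and E15.5, with E14.5 between. *Egr1* (ENSMUSG00000038418.7, chromosome 18, 34859823 to 34864984), the best-known serum-inducible zinc finger factor, was at 10.8, 7.83 and 14.1 CPM at E13.5, 13, 14.9 and 24.0 CPM at E14.5, and 30.5, 27.6 and 28.7 CPM at E15.5. Its log2 fold change from E13.5 to E15.5 was 1.40 (standard error 0.37, edgeR adjusted p 0.0168), and the adjusted p was 0.0595 and 0.0801 without E13.5 replicates 1 and 2. *Egr3* (ENSMUSG00000033730.4, chromosome 14, 70077203 to 70082614), a target of the same signals, was at 1.18, 1.80 and 2.64 CPM at E13.5, 4.03, 5.06 and 4.10 CPM at E14.5, and 9.05, 6.53 and 9.0 CPM at E15.5. No 2 of these 3 stages overlapped, and the change from E13.5 to E15.5 was the largest among the members (log2 fold change 2.11, standard error 0.37, edgeR adjusted p 0.00194). It passed whichever library was left out, with a highest adjusted p of 0.0132, while the single-day steps had adjusted p values of 0.168 and 0.0777.

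Of 30 other immediate early genes 6 rose and 3 fell between E14.5 and E15.5, with a median log2 fold change of 0.11. Counts of this and the next lists are to be read against the 12.7% of all genes called higher and 13.4% called lower in this step, and those of the immediate early genes, AP-1 partners and upstream genes lie near these shares. The nuclear receptor genes *Nr4a3* and *Nr4a2* fell, from 10.5 ± 1.89 to 3.00 ± 0.472 CPM and from 24.9 ± 3.84 to 11.3 ± 1.34 CPM (SD, n = 3). *Ier3* went up from 3.30 ± 0.415 to 8.54 ± 0.956 CPM and *Gadd45b*, a growth arrest and stress gene, from 11 ± 3.23 to 23.8 ± 3.04 CPM. Their log2 fold changes were -1.80, -1.14, 1.36 and 1.11 (edgeR adjusted p 0.0351, 0.00838, 0.000475 and 0.00886).

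Of 12 other AP-1 partners 2 rose and 1 fell. *Maff*, a small Maf protein, went from 4.12 ± 0.336 to 8.64 ± 1.94 CPM, *Jdp2*, which pairs with Jun proteins, from 16.9 ± 3.17 to 27.4 ± 2.29 CPM, and *Atf2* from 96.1 ± 14.9 to 59.7 ± 2.77 CPM (SD, n = 3, edgeR adjusted p 0.0345, 0.0259 and 0.0236). Of 18 upstream kinases and factors 1 rose and 3 fell (median -0.20). *Mapk10* and *Mapk8*, which encode Jun N-terminal kinases, had log2 fold changes of -1.91 and -1.29 (edgeR adjusted p 0.0126 and 0.00275). Of 9 other MAP kinase phosphatases 0 rose and 2 fell, *Dusp4* and *Dusp8* (log2 fold changes -1.92 and -1.77, edgeR adjusted p 0.00833 and 0.0139). Of 3 tested other EGR and NAB co-repressor genes 0 passed (1 at an unadjusted p under 0.05), with the largest value, 0.56, for *Nab2*, which encodes a repressor of EGR proteins. *Egr2* rose from E13.5 to E15.5 (log2 fold change 1.76, edgeR adjusted p 0.00242).

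Of 14 tested genes known as AP-1 targets, 7 rose between E14.5 and E15.5 and none fell, with a median log2 fold change of 1.09. *Mmp13*, the collagenase of hypertrophic cartilage and bone, had a mean of 0.470 ± 0.149 CPM at E14.5 and 45.3 ± 41.2 CPM at E15.5 (SD, n = 3), a log2 fold change of 6.49 (edgeR adjusted p 0.000548) with a spread at E15.5 close to its mean. The protease inhibitor gene *Timp1* went from 6.76 ± 2.95 to 31.8 ± 6.93 CPM and the cytokine gene *Lif* from 0.365 ± 0.146 to 1.57 ± 0.482 CPM, with log2 fold changes of 2.23 and 2.00 (edgeR adjusted p 0.00317 and 0.00700). Heat shock genes gave 2 higher and 1 lower of 10, and genes of the ATF4 and unfolded protein response 1 higher of 9. Markers of several cell types moved in the same step. Of the fixed markers, 5 of 6 for osteoblasts, 4 of 5 for osteoclasts, 4 of 6 for skeletal muscle, 3 of 5 for macrophages, 3 of 8 for epithelium, 2 of 5 tested for keratinized epithelium and 1 of 5 for neutrophils rose. Of 5 markers of Schwann cells and neurons 1 rose and 2 fell, of 9 mesenchyme markers 1 fell, and of the 4 endothelial and 6 erythroid markers 0 passed (0 and 3 at an unadjusted p under 0.05). The summed osteoblast markers went from 1016 to 2195 CPM over the E14.5 libraries to 13816 to 16186 CPM at E15.5, the osteoclast markers from 68.5 to 80.6 CPM to 149 to 404 CPM, and the muscle markers from 115 to 605 CPM to 967 to 2568 CPM. The part of these cell types in the values of the AP-1 and EGR genes was not tested.

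From E15.5 to E16.5 the clearest difference was that of *Atf3*, at 2.98 to 3.94 CPM in the E15.5 libraries and 9.35 to 11.7 CPM at E16.5. This contrast shares the E16.5 libraries with the one that picked out the genes, so it is described. *Atf3* had a log2 fold change of 1.58 (standard error 0.25) and was the 1 member past the threshold, against 1.41% of all genes in either direction and 1.03% higher. *Fos*, *Fosb*, *Junb* and *Jund* also had all 3 E16.5 libraries above those of E15.5 (log2 fold changes 0.76, 0.76, 0.64 and 0.43), as 15.7% of all genes did. *Jun* was lower in all 3 (88.2 to 94.3 against 96.5 to 99.5 CPM), and *Fosl2*, *Egr1* and *Egr3* overlapped between the stages. *Atf3* remained past the threshold when E16.5 replicate 3 was left out and not when any other of the 6 libraries was. In the former fit 2.19% of all genes were called, and in the others 0 to 0.338%.

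At P0 most of the 10 genes were higher than at E16.5. *Fosb*, *Atf3* and *Fos* had means at 10.5, 5.50 and 4.40 times those of E16.5. These genes and *Jun*, *Junb*, *Jund* and *Egr1* were higher in every P0 library than in any E16.5 library, as were 6.23% of all genes. *Fosl2* overlapped between the stages, and *Egr3* was the 1 member with a lower mean at P0. Without P0 replicate 2 the ratios were 6.71 for *Fosb*, 4.41 for *Atf3* and 3.01 for *Fos*. Leaving out a library cannot make separate libraries overlap, so the same genes stayed apart. The remaining P0 pools held Y-linked RNA and the E16.5 pools hardly any, so these ratios do not separate stage from sex. With all 3 P0 libraries 4 of 10 members had an adjusted p under 0.05 (*Fos*, *Fosb*, *Jun* and *Atf3*), against 0.352% of all genes in either direction and 0.190% higher (42 genes higher and 36 lower, or 36 and 17 with upper-quartile normalization), and without P0 replicate 2 there were 2 (*Fosb* and *Atf3*), against 0.105% and 0.0786%. As the genes were picked out in this contrast, nothing is read from these counts. The count was 1 without E16.5 replicate 2 or E16.5 replicate 3 (0.0435% and 0.0521% of all genes in either direction).

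**Figure D2:**
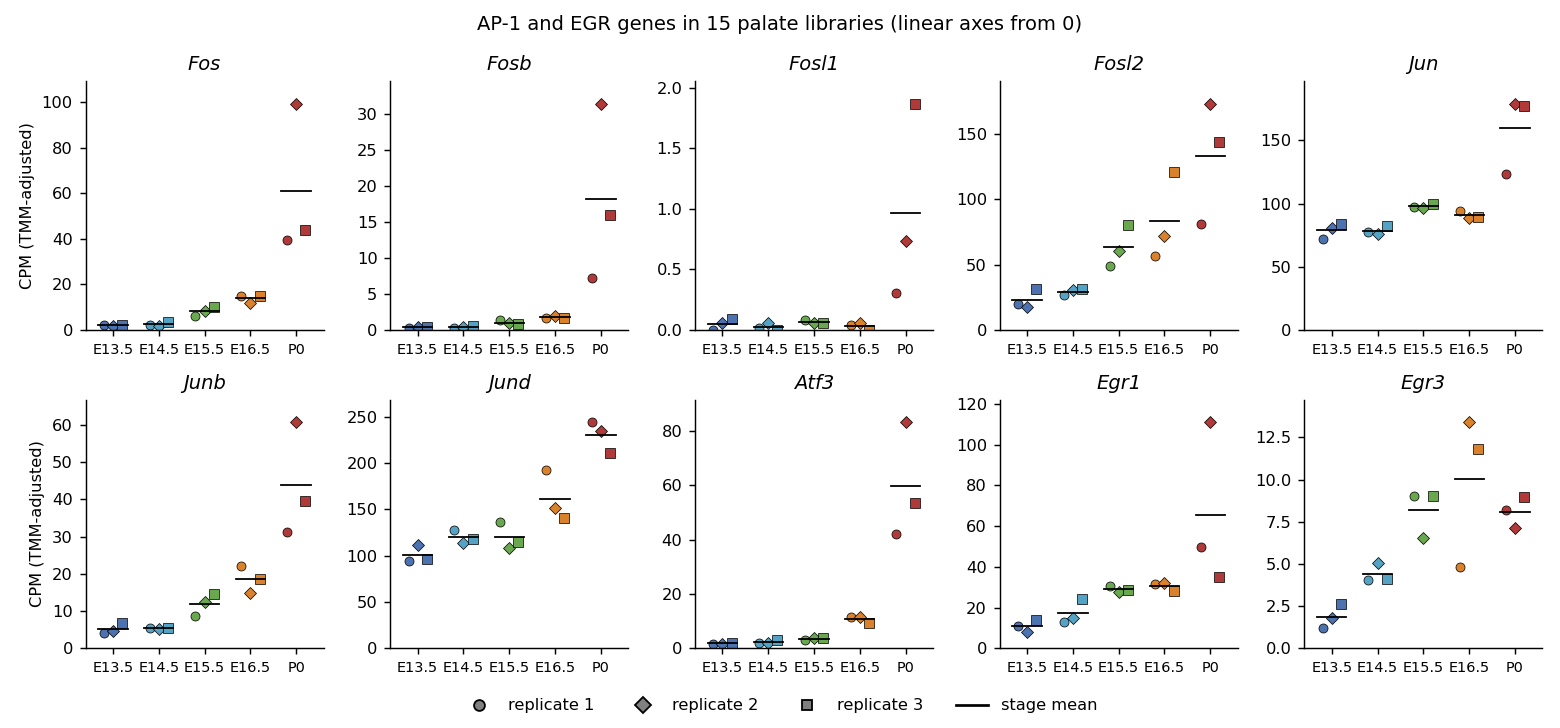
TMM-adjusted CPM (y axis, linear and starting at 0, with its own scale in each panel) of the 10 genes in each of the 15 libraries by stage (x axis). Symbols give the replicate and the line the stage mean of 3 libraries. P0 replicate 2 (diamond) is the highest library of *Fos* at 99.4 CPM, *Fosb* at 31.4 CPM and *Egr1* at 111 CPM, whereas *Egr3* is highest in E16.5 replicate 2 at 13.4 CPM.

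*Fos* had 15, 11.9 and 14.7 CPM at E16.5 and 39.4, 99.4 and 44.0 CPM at P0. Replicate 2 was 2.38 times the mean of the other P0 libraries, and the log2 fold change was 2.14 (standard error 0.37) with it and 1.57 (standard error 0.30) without it. *Fosb* was at 1.68, 1.88 and 1.64 CPM at E16.5 and at 7.27, 31.4 and 16 CPM at P0. Its P0 libraries were spread widely, with replicate 2 at 2.70 times the mean of the others, and its log2 fold change was 3.37 (standard error 0.48) with and 2.71 (standard error 0.40) without that library.

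*Atf3* was at 11.7, 11.5 and 9.35 CPM at E16.5 and at 41.9, 83.1 and 53.5 CPM at P0. Replicate 2 was 1.74 times the mean of the other P0 libraries. The log2 fold change of *Atf3* was 2.45 (standard error 0.26) with replicate 2 and 2.12 (standard error 0.23) without it. *Junb* was at 22.2, 15 and 18.7 CPM at E16.5 and at 31.3, 60.7 and 39.5 CPM at P0, with log2 fold changes of 1.23 (standard error 0.27) and 0.91 (standard error 0.26). *Jun* was at 94.3, 88.2 and 89.5 CPM at E16.5 and at 123, 179 and 177 CPM at P0. Here replicates 2 and 3 stood together above replicate 1, and the log2 fold changes were 0.82 (standard error 0.13) and 0.71 (standard error 0.14).

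*Egr1* also depended on P0 replicate 2. It was at 31.4, 32.2 and 28.0 CPM at E16.5 and at 49.8, 111 and 35.2 CPM at P0, where replicate 2 was 2.61 times the mean of the others. Without it the ratio of means went from 2.14 to 1.39 and the log2 fold change from 1.1 (standard error 0.36) to 0.46 (standard error 0.28). *Egr3* did not follow *Egr1*, with 4.83, 13.4 and 11.8 CPM at E16.5 and 8.18, 7.13 and 8.97 CPM at P0. Its P0 libraries lay within the range of the E16.5 libraries, whose replicate 1 was far below the other pair.

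*Jund* was at 192, 151 and 140.5 CPM at E16.5 and at 244, 235 and 211 CPM at P0, with log2 fold changes of 0.51 (standard error 0.14) and 0.48 (standard error 0.15) with and without replicate 2. *Fosl2* was at 56.7, 71.9 and 120.4 CPM at E16.5 and at 80.9, 173 and 144 CPM at P0, and its lowest P0 library lay below its highest E16.5 library. Its log2 fold change was 0.68 (standard error 0.33) with replicate 2 and 0.42 (standard error 0.35) without it. *Fosl1* had 2, 2 and 0 counts at E16.5, at or below the floor of 3 counts, and 11, 24 and 43 counts at P0, or 0.305, 0.732 and 1.87 CPM. Unlike *Fos* and *Fosb* it was highest in P0 replicate 3, the shallowest library.

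**Figure D3:**
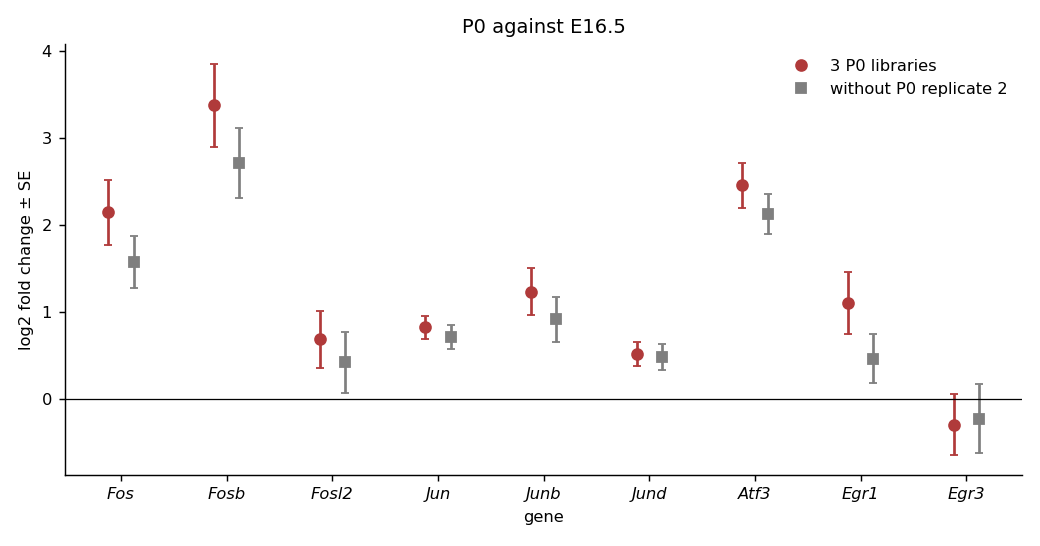
Log2 fold change of P0 against E16.5 (y axis, bars give the standard error) for 9 genes, fitted with all 3 P0 libraries (circles) and without P0 replicate 2 (squares). *Egr1* moves from 1.1 to 0.46, and *Jund* stays at 0.51 and 0.48. *Fosl1* is left out because its E16.5 counts were at or below the floor.

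P0 replicate 2 was the highest P0 library in 7 of the 10 members, and in the same number the highest of all 15 libraries. Over all tested genes it was the highest P0 library in 34.4% and the highest of 15 in 14.1%. Its mitochondrial share of counts was 2.83%, against 1.49% and 1.95% in the other P0 libraries and 1.56% to 1.77% in the embryonic ones. Its summed muscle markers were at 25776 CPM, against 21748 CPM in P0 replicate 1 and 4559.8 CPM in replicate 3, and its keratinized epithelium markers at 1935 CPM, against 418 and 2868 CPM. Its osteoclast markers were the lowest of the P0 libraries, at 2166 CPM against 4252 and 2426 CPM. The part of mitochondrial share and of tissue makeup in the levels of replicate 2 was not tested.

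Few markers passed between E16.5 and P0, where only 0.352% of all genes passed in either direction, so these counts say little about the markers. Median log2 fold changes were 1.44 for keratinized epithelium, 1.40 for neutrophil and 0.81 for osteoclast markers. In the other marker lists they were -0.41 (erythroid) to 0.53 (epithelium). With edgeR, 0 of the osteoblast, osteoclast, skeletal muscle, epithelium, keratinized epithelium, neutrophil, endothelium, erythroid, Schwann and neuron, and palate mesenchyme markers passed, with 1 osteoclast, 3 keratinized epithelium and 1 neutrophil marker at an unadjusted p under 0.05 and 0 in the other lists. Of the macrophage markers 1, *Cx3cr1*, was lower. The summed neutrophil markers were 7.66 to 23.5 CPM at E16.5 and 25.4 to 39.2 CPM at P0, and the osteoclast markers 1174 to 2079.9 and 2166 to 4252 CPM, so both sums lay higher at P0 in all libraries. The part of these cells in the AP-1 and EGR values was not tested.

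Several other immediate early genes were also higher at P0. Of 30, 6 had an adjusted p under 0.05 and were higher than at E16.5, against 0.190% of all genes, and 0 were lower. All P0 libraries lay above all E16.5 libraries in 19, and the median log2 fold change was 0.85, against 0.00 over all genes. Without P0 replicate 2 the count was 2, against 0.0786% of all genes, and the median 0.69. Of all genes, 6.23% had every P0 library above every E16.5 library. The largest differences past the threshold were those of *Ccn1*, which encodes a matrix-associated signalling protein (205 ± 10.8 against 44.8 ± 5.91 CPM, SD, n = 3), *Dusp1*, a phosphatase that inactivates MAP kinases (73.9 ± 27.9 against 26.6 ± 5.77 CPM), and *Sgk1*, a serum- and glucocorticoid-induced kinase (76.3 ± 19.7 against 27.6 ± 7.08 CPM). Summed over the 30 genes, the P0 libraries were at 1911, 2699 and 1920.3 CPM, again highest in replicate 2, and the E16.5 libraries at 1100.5 to 1286 CPM.

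**Figure D4:**
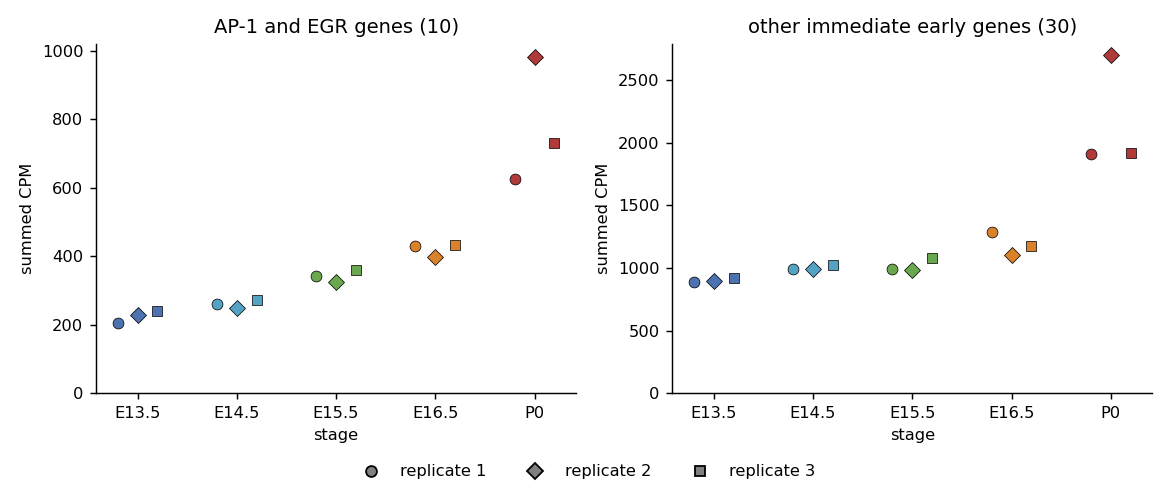
Summed CPM (y axis, from 0) of the 10 AP-1 and EGR genes (left) and of 30 other immediate early genes (right) in each library by stage (x axis). The members sum to 206 to 239.7 CPM at E13.5, 397 to 434 CPM at E16.5 and 626 to 981 CPM at P0, and P0 replicate 2 is the highest in both panels.

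The counts of the next lists, between E16.5 and P0, are to be read against 0.352% of all genes called in either direction and 0.190% higher. Of 12 other AP-1 partners 0 passed with edgeR (2 at an unadjusted p under 0.05, median log2 fold change 0.06, largest 0.76 for *Mafk*). Of 3 tested EGR and NAB genes 0 passed (1 at an unadjusted p under 0.05, largest 0.82 for *Egr2*). Of 18 upstream kinases and factors 0 passed (3 at an unadjusted p under 0.05, median -0.05, largest 0.52 for *Elk4*). Of 9 other MAP kinase phosphatases 1 was higher, *Dusp5*, a phosphatase of ERK kinases, at 16.9 ± 8.76 against 5.01 ± 0.294 CPM (SD, n = 3). Of 14 tested AP-1 targets 1 was higher, the urokinase receptor gene *Plaur*, at 22.6 ± 2.41 against 8.67 ± 1.97 CPM, while 6 had every P0 library above every E16.5 library and the median log2 fold change was 0.80. Without P0 replicate 2 *Plaur* did not pass and the median was 0.50. Of 9 genes of the ATF4 and unfolded protein response 1 was higher, *Ppp1r15a* (78.9 ± 18.4 against 39.7 ± 2.86 CPM), which did not pass without P0 replicate 2. Of 10 heat shock genes 0 passed (3 at an unadjusted p under 0.05, median -0.07). The largest values of that list were those of *Hspa8*, a constitutive chaperone, and *Hsph1*, at 1107 ± 327 against 1641 ± 109 CPM and at 82.9 ± 28.3 against 119.6 ± 9.0 CPM.

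The 9 members other than *Fosl1* were higher at P0 than at E13.5 past the threshold, as was *Fosl1*, which entered the test only through P0, and the 10 were so with and without P0 replicate 2 (29.8% and 27.2% of all genes). P0 was the highest stage in 9 members, *Fosl1* among them, against 31.3% of all genes. *Fosb* was at 44.6 times, *Atf3* at 32.5 times and *Fos* at 29.8 times the E13.5 mean, while *Jund* and *Jun* were at 2.28 and 2.03 times. Against E15.5, 9 members were higher at P0, all but *Egr3*, where 12.2% of all genes were higher. Leaving out *Fosl1*, which entered this test too only through P0, 8 were. Without P0 replicate 2 the count was 7, *Fosl1* among them, where 7.24% of all genes were higher. These contrasts share the P0 libraries with the one used to pick the genes.

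The stages of *Fos*, *Fosl2*, *Junb*, *Atf3* and *Egr1* followed the same order of means, ascending from E13.5 through each stage to P0. In *Fos*, *Junb* and *Atf3* only E13.5 and E14.5 overlapped among neighbouring stages. In *Fosl2*, E13.5 with E14.5, E15.5 with E16.5, and E16.5 with P0 overlapped, and in *Egr1*, E13.5 with E14.5 and E15.5 with E16.5. *Fosb* and *Jun* were lowest at E14.5, which overlapped E13.5, and *Jun* was higher at E15.5 than at E16.5 with no overlap. *Jund* had overlapping E13.5, E15.5 and E14.5 libraries, in that order, below E16.5 and P0. *Egr3* was lowest at E13.5 and next lowest at E14.5, neither overlapping its neighbours, below P0, E15.5 and E16.5 in that order, whose neighbours overlapped.

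Levels of different genes were compared per kilobase (kb) of summed exon length. At E13.5 *Jund* stood at 60.3 ± 5.61 and *Jun* at 24.7 ± 1.92 CPM per kb (SD, n = 3), far above *Egr1* at 2.43 ± 0.704, *Fosl2* at 2.35 ± 0.736 and *Junb* at 2.25 ± 0.595. *Fos* and *Atf3* were at 0.869 ± 0.158 and 0.850 ± 0.128 CPM per kb, and *Egr3*, *Fosb* and *Fosl1* at 0.425 ± 0.167, 0.0655 ± 0.0112 and 0.0284 ± 0.0264. At P0 *Jund* and *Jun* still led, at 138 ± 10.2 and 50.1 ± 10.1 CPM per kb. They were followed by *Atf3* at 27.6 ± 9.86, *Fos* at 25.9 ± 14.2 and *Junb* at 19.1 ± 6.60, whose spreads overlap, then *Egr1* at 14.6 ± 8.96 and *Fosl2* at 13.7 ± 4.88. *Atf3*, *Fos* and *Junb* thus came closer to *Jun* and *Jund* on this scale, with means below both.

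The makeup of the Fos and Jun families was followed on the same scale. Of the summed Fos family level per kb, *Fosl2* held 70.5 ± 3.00% at first (E13.5), then 73.7 ± 5.99% (E14.5), 63.9 ± 1.38% (E15.5), 56.8 ± 9.47% (E16.5) and finally 32.9 ± 6.42% (P0; SD, n = 3). The share of *Fos* was 26.6 ± 3.45%, 24.5 ± 6.46%, 34.0 ± 1.52%, 41.1 ± 9.04% and 59.3 ± 7.88% at the same 5 stages, and that of *Fosb* was 6.32 ± 1.71% at P0. *Jund* held 66.5 to 72.8% and *Jun* 21.6 to 28.6% of the Jun family on average at every stage, while *Junb* went from 2.58 ± 0.671% at E13.5 to 9.10 ± 2.51% at P0. The summed Fos family was at 3.83 ± 1.1% of the summed Jun family at E13.5, and at 4.2 ± 0.667%, 9.55 ± 2.55%, 11.4 ± 3.92% and 20.5 ± 8.16% at the later stages in turn. These are shares of messenger RNA and were not tested.

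**Figure D5:**
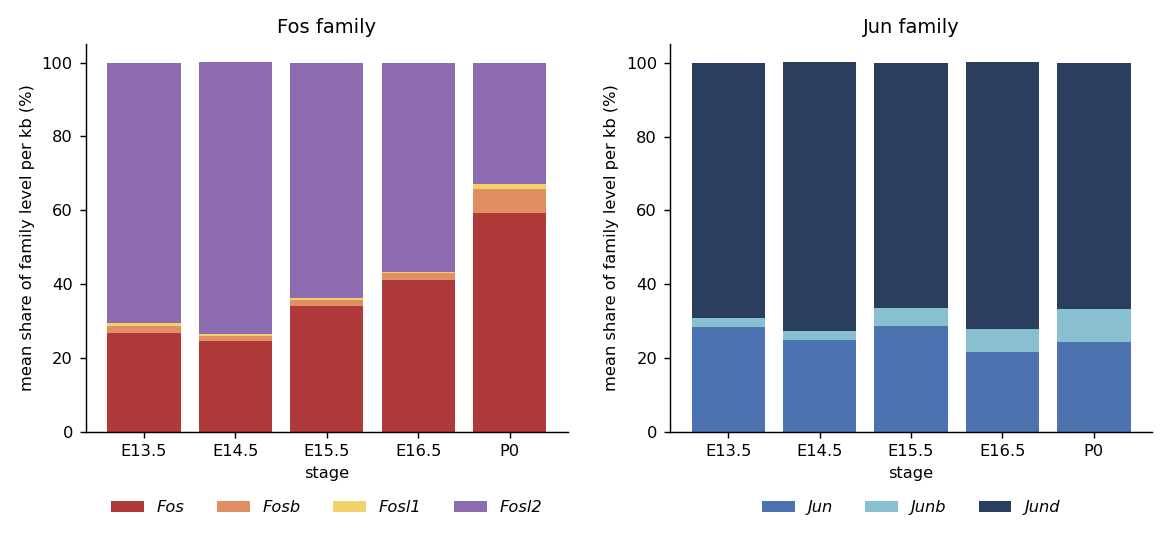
Mean share (y axis, percent of the family's summed CPM per kb, over 3 libraries) of each Fos gene (left) and each Jun gene (right) by stage (x axis). *Fosl2* goes from 70.5% at E13.5 to 32.9% at P0 and *Fos* to 59.3%, while *Jund* holds 66.5 to 72.8% throughout.

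Members resembled each other to different degrees across the 15 libraries. The Pearson correlation of log2 CPM with the mean of the other members' standardized values was 0.976 for *Fos*, 0.973 for *Junb* and 0.965 for *Fosb*, and 0.747 for *Fosl1* and 0.638 for *Egr3*, the lowest (Spearman correlations 0.950, 0.964, 0.979, 0.466 and 0.693). The libraries share their stage, which sets most of these values. Among 13037 other genes with a mean of at least 10 CPM in a stage, those closest to the mean profile of the 10 were *Klf9*, *Nr4a1*, *Lpcat2*, *Nfkbia* and *Map3k6* (Pearson correlations 0.977, 0.972, 0.972, 0.971 and 0.969, and 0.971, 0.962, 0.975, 0.966 and 0.965 without P0 replicate 2). Without that library their ranks among all compared genes were 5, 14, 4, 9 and 10, so *Klf9* and *Lpcat2* stayed among the closest 5. *Klf9*, a Krüppel-like factor, was at 4.38 ± 0.461 CPM at E13.5, 18 ± 3.25 CPM at E16.5 and 58.9 ± 34.7 CPM at P0 (SD, n = 3). *Nr4a1*, an orphan nuclear receptor gene of the immediate early group, was at 12.3 ± 2.78, 35.3 ± 6.11 and 83.8 ± 22 CPM, and *Nfkbia*, which encodes an inhibitor of NF-kB, at 29.4 ± 5.14, 57.3 ± 5.06 and 120.2 ± 39.6 CPM at those stages.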

How the data were processed

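Bulk RNA of wild-type secondary palates was analysed in 15 libraries over 5 stages, grouped by the labels. The deposited table holds raw counts per gene and the summed exon length of each gene. Per the file headers, featureCounts 2.0.1 produced them from adapter-trimmed, duplicate-marked alignments in its paired and reverse-stranded mode, without the option for multi-mapping reads, on GENCODE M18. The submitters' processing notes list cutadapt 3.4, HISAT2 2.2.1, Bowtie2, SAMtools 1.12 and mm10, without roles. Symbols were matched by identifier to GENCODE M21 for 54079 of 54232 genes.

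Low counts were removed by edgeR's filterByExpr with the stages as groups and a minimum count of 10, leaving 22151 genes and all 10 members. Counts were scaled by TMM, and edgeR 4.0.16 under R 4.3.3 estimated a mean for each stage over the 15 libraries, using its quasi-likelihood F test. P-values were adjusted by Benjamini-Hochberg over all tested genes. Fitted log2 fold changes used a prior count of 2, and each standard error was derived from the unshrunk fold change and the F value. The procedure was tested on simulated data for E15.5 against E14.5. Of 66 genes each changed by 2, 4 and 8 times it called 22.7%, 65.2% and 83.3%, and of 21540 unchanged genes 0.0511%. A gene that did not pass may therefore still have changed by 2 times. In the data 26.1% of genes were called in this contrast, a far larger share than was changed in the simulation. The simulated shares need not hold there. A floor of 3 counts covers counting error only. Chi-square per degree of freedom between libraries of a stage was 29.5 to 225, so no library repeated another.

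The members and gene lists were chosen with earlier results of these data known. From a list, the text names the genes with the largest absolute log2 fold changes past the threshold, otherwise the largest in the list. Pattern-like genes are the 5 with the highest Pearson correlation among genes of at least 10 CPM in their highest stage. The alternatives were DESeq2 1.42.0, DESeq2 size factors, upper-quartile scaling, no filter, a mean of at least 1 CPM, a prior count of 0.5, fits to only the libraries compared, the replicate number as a block, and leaving out each library. Promoter sequences come from RefSeq.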

Additional observations from a re-analysis of the deposited data

How the results depend on the processing

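The number of members past the threshold depended on the settings, and the cause was not tested. From E14.5 to E15.5 settings other than leaving out a library gave 3 to 6 members (4 in the main fit). Upper-quartile scaling and fits to only the libraries compared each gave 6, with 5431 and 6569 genes called in all, against 5773. DESeq2 called 1 in place of 0 from E13.5 to E14.5, 2 in place of 1 from E15.5 to E16.5 and 7 in place of 4 from E16.5 to P0, with 1000, 2094 and 663 genes called in all, against 2, 312 and 78 with edgeR. Fits to only the libraries compared called 0 members, and 0 of all genes, in both later steps, where 5 and 8 members had an unadjusted p under 0.05. Leaving out any 1 of the 15 libraries (those outside a contrast were added after seeing the data) gave 2 to 7 members (4 with all) from E14.5 to E15.5, highest without P0 replicate 2, 4 to 8 (6 with all) from E13.5 to E15.5, 0 to 1 (1 with all) from E15.5 to E16.5, 1 to 5 (4 with all) from E16.5 to P0, and 3 to 8 (6 with all) in the test over E13.5 to E15.5, lowest without E15.5 replicate 3 and highest without P0 replicate 1. From E16.5 to P0 it was 2 without E13.5 replicate 1 or 2, E14.5 replicate 2, or E15.5 replicate 2 or 3. Over all genes, leaving out 1 library called 10.2 to 26.3% from E14.5 to E15.5 and 11.2 to 24.1% from E13.5 to E15.5. The shares were 0 to 4.25% from E15.5 to E16.5, 0.0435 to 0.939% from E16.5 to P0 and 13.4 to 30.5% in the test over E13.5 to E15.5. Folds near 0 changed sign. *Jund* from E14.5 to E15.5 (-0.00) was 0.02 with DESeq2, with its size factors and with only the libraries compared, 0.12 with upper-quartile scaling, 0.05 with no filter, 0.08 with a mean of 1 CPM, and -0.12 to 0.06 leaving out a library. From E13.5 to E14.5, *Junb* (0.06) was -0.02 with upper-quartile scaling, and leaving out a library gave -0.08 to 0.29 for *Junb*, -0.11 to 0.44 for *Fos*, -0.25 to 0.22 for *Fosb* and -0.06 to 0.04 for *Jun*. *Fosl1* from E13.5 to E15.5 was -0.08 to 0.67 leaving out a library. With the replicate number as a block, 0, 4 and 7 members were called from E13.5 to E14.5, E14.5 to E15.5 and E13.5 to E15.5, 1 from E15.5 to E16.5, 3 from E16.5 to P0, 8 from E15.5 to P0, 10 from E13.5 to P0 and 7 in the test over E13.5 to E15.5, and 135 genes in place of 2 in all from E13.5 to E14.5. Same-numbered libraries share only a number: their deviations correlated at over 0.1 in 9 of 30 pairs (mean 0.06), and 7 of 15 libraries correlated best with their own number.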
